A study of Mus musculus with 12 samples.

Results

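The heat shock proteins and J-domain co-chaperones are described here in the mouse striatum after morphine sensitization, with and without the histone deacetylase inhibitor sodium butyrate. Members were the genes whose symbol starts with Hspa, Hspb, Hspd, Hspe, Hsph, Hsp90 or Dnaj, other than Hspa5, Hsp90b1 and Hspbap1. They were read from array rows that the platform annotation ties to a single symbol, with the rows of a gene averaged. This gave 69 genes among 19935 tested, 24 heat shock proteins and 45 J proteins, from 92 rows of the array. The rule uses gene symbols and no measured value, though the family was picked with earlier results of these data known.

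All mice were males of the Swiss-Albino stock, aged 2 months, and each array carried striatal RNA pooled from 4 animals. The Saline group (6 arrays) had vehicle injections alone during induction. The SalMorphine group (3 arrays) had saline followed by morphine at 20 mg/kg in each of 6 induction trials, and the ButMorphine group (3 arrays) had sodium butyrate at 300 mg/kg followed by the same morphine dose. A challenge injection came 7 days after induction and RNA was taken 1 h later. The challenge was morphine in SalMorphine and ButMorphine. For Saline the labels disagree: by the source name the challenge was saline, and by the protocol every mouse had morphine. Repeated morphine and, by the source name, the challenge injection thus both enter a difference from Saline. No group had butyrate without morphine, so butyrate was measured only on top of morphine.

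Heat shock proteins are molecular chaperones, which bind proteins that are unfolded or partly folded and help them to fold, to cross membranes or to be degraded. The Hsp70 proteins (Hspa genes) do so in cycles of ATP binding and hydrolysis, and the J-domain proteins (Dnaj genes) speed up the hydrolysis and bring substrates to a given Hsp70. Hsp90 proteins act later on clients such as kinases and steroid hormone receptors, small heat shock proteins (Hspb genes) hold unfolded proteins without ATP, and Hspd1 with Hspe1 forms the folding chamber of mitochondria. In neurons J proteins also uncoat clathrin vesicles (Dnajc6) and guard proteins of the synaptic vesicle (Dnajc5). Proteotoxic stress raises part of the family through heat shock factor 1, which binds heat shock elements in their promoters.

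The deposited values are log differences from a baseline, taken here as log2, with Saline centred on 0. The Saline values mirror each other within 3 pairs of arrays (1 with 2, 3 with 4, 5 with 6), so these 6 arrays carry 3 independent values and the Saline spread is less well known than their number implies. The mean of each pair is thus 0 by construction, and the Saline spread leaves out any difference between pairs. The main fit counts the 6 arrays as separate, so its intervals and adjusted p values against Saline may be too narrow and too low. Over all genes the SD of an array was 0.0504 to 0.0829 in Saline, 0.122 to 0.148 in SalMorphine and 0.110 to 0.128 in ButMorphine. The rounding of the values shows whether a row was stored at 8 or more before centring: this held for 8 of 9 striatal projection neuron markers. Markers of other cells moved with the groups. The array means of 11 choroid plexus markers were 1.07 to 1.28 in SalMorphine, 0.77 to 1.03 in ButMorphine and -0.10 to 0.10 in Saline, with 11 and 9 of the 11 higher past the threshold against Saline. Those of 9 endothelial markers were -0.30 to -0.23, -0.24 to -0.15 and -0.06 to 0.06 in the same order, with 4 of 9 lower past the threshold in each morphine group. Those of 9 microglia markers were -0.25 to -0.16, -0.20 to -0.15 and -0.07 to 0.07, with 3 and 2 of 9 lower past the threshold. Those of 7 ependymal markers were -0.05 to 0.18 in SalMorphine and 0.06 to 0.17 in ButMorphine, with 0 past the threshold in limma and 1 and 3 at an unadjusted p under 0.05. Of 9 astrocyte markers 1 was higher and of 9 oligodendrocyte markers 1 was lower past the threshold in each morphine group. The array means of 9 striatal projection neuron markers were -0.17 to -0.11 in SalMorphine and -0.06 to 0.02 in ButMorphine. Of these 9 markers, 2 were lower past the threshold in SalMorphine and 0 in ButMorphine. In SalMorphine 8 of them were lower at an unadjusted p under 0.05 in limma. The 3 SalMorphine arrays spread widely in 5 cortical markers (-0.79 to 0.06, beside -0.15 to 0.08 in ButMorphine). Both morphine groups did so in 8 thalamic and septal markers (0.09 to 0.65 in SalMorphine and -0.07 to 0.49 in ButMorphine). Of these 8 markers, 3 were higher past the threshold in SalMorphine and 0 in ButMorphine. In pooled tissue fewer cells of a type and less RNA per cell cannot be told apart, and the part of these differences in the results below was not tested.

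A larger share of the family than of all genes gave a strong probe signal. Of the 69 members, 34 (49.3%) were stored at 8 or more in each of their rows, against 24.1% of all genes tested, which describes probe signal and not transcript number. All 4 Dnaja genes were in this class, with 6 of 13 Dnajb, 13 of 28 Dnajc and 6 of 11 Hspa genes. Hsp90aa1, Hspd1, Hspe1 and Hsph1 were in it too. Of the 9 Hspb genes only Hspbp1, which encodes a nucleotide exchange factor for Hsp70 and not a small heat shock protein, was in it. The testis genes Dnajb3, Dnajb8, Dnajb13 and Dnajc5g were below the boundary, as were the stress-inducible Hspa1a and Hspb1.

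Few members differed between groups, and the differences were small. With limma and Benjamini-Hochberg adjustment over all genes, 1 of 69 members passed an adjusted p of 0.05 in SalMorphine against Saline (Dnajc30, lower), where 2.66% of all genes did. In ButMorphine against Saline 2 members passed (Dnajb14 and Hspa13, both higher), where 2.48% of all genes did. Between ButMorphine and SalMorphine 0 members passed and 8 had an unadjusted p under 0.05 in limma, where 0.00% of all genes passed and 8.62% had an unadjusted p under 0.05. With both morphine groups averaged against Saline, 2 members passed (Dnajb14 higher and Dnaja4 lower), where 4.59% of all genes did. These shares are near the background of each comparison. The median member differed from Saline by 0.0011 in SalMorphine and 0.0231 in ButMorphine, beside -0.0036 and 0.0063 over all genes. With the 6 mirrored Saline arrays counted as separate, the 95% interval of each of the 69 members lay within 1.5-fold in every one of these comparisons.

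**Figure D1:**
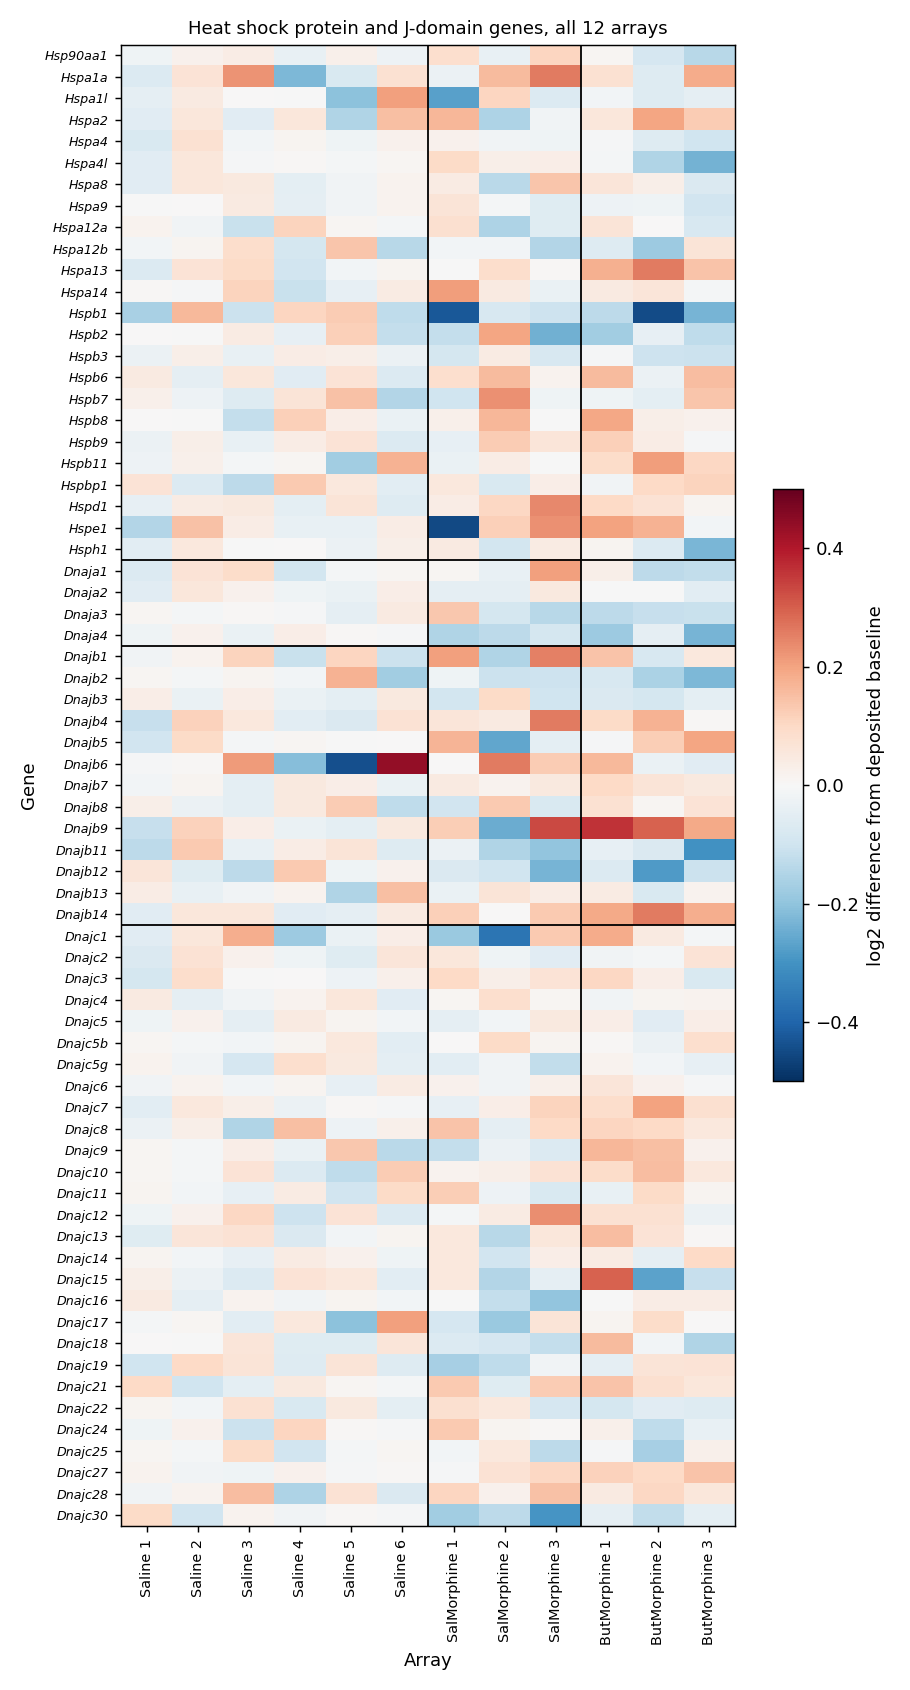
Values of the 69 members (rows, heat shock proteins first, then Dnaja, Dnajb and Dnajc genes) on the 12 arrays (columns), as the log2 difference from the deposited baseline, red above and blue below. Most cells are pale in all groups, the 4 Dnaja genes are mostly pale blue in ButMorphine (array means -0.13 to -0.07), and Dnajb6, with an SD of 0.23 over the arrays, has its strongest cells in Saline arrays 5 and 6.

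The stress-inducible chaperones, the genes that heat shock factor 1 raises when proteins unfold, did not pass the test in any comparison. Of 14 genes on this list 12 were measured singly; Hspa1b shares its only row with Hspa1a, and Hsp90ab1 has no row that names it. In limma 0 of 12 passed, and those with an unadjusted p under 0.05 were 1 in SalMorphine against Saline, 2 in ButMorphine against Saline and 2 between the morphine groups, where 15.5%, 17.0% and 8.62% of all genes had one. Their median difference was 0.06 in SalMorphine and 0.02 in ButMorphine against Saline and -0.07 between ButMorphine and SalMorphine, beside -0.0036, 0.0063 and 0.0106 over all genes. In the last comparison 10 of the 12 differences were negative.

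The heat shock element was searched in promoters from RefSeq (build GRCm38.p6), each 250 bases before to 50 after the first listed start. It was written as GAANNTTC or TTCNNGAA, where N is any base and both forms read the same on either strand, and overlapping matches were counted. Of 69 members 56 had a promoter in the table, and 11 of these (19.6%) held the element, against 13.3% of all 15612 promoters of the same length. They were Dnaja1, Dnajb6, Dnajc10, Dnajc27, Dnajc5g, Hspa1a, Hspb1, Hspb3, Hspb8, Hspe1 and Hsph1. Bases before the start are printed for the 3 stress-inducible genes Hspa1a, Hspb1 and Hsph1, and a 30-base stretch for Hspe1, whose 3 matches overlap in a single run. All run 5′ to 3′ on the gene's strand with the element in capitals. They are chr17:34972157-34972406 (minus strand) for Hspa1a, chr5:135887669-135887918 (plus strand) for Hspb1, chr5:149636337-149636586 (minus strand) for Hsph1 and chr1:55088053-55088082 (plus strand) for Hspe1.
Hspa1a: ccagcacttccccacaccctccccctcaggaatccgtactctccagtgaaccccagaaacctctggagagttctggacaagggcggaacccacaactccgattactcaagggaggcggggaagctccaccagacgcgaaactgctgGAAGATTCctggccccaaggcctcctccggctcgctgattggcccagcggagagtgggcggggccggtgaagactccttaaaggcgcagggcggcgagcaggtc
Hspb1: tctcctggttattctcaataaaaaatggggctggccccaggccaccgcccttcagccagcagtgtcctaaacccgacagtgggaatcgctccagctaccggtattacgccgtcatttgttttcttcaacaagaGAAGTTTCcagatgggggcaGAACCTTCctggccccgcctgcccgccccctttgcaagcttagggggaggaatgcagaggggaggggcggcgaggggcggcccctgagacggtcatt
Hsph1: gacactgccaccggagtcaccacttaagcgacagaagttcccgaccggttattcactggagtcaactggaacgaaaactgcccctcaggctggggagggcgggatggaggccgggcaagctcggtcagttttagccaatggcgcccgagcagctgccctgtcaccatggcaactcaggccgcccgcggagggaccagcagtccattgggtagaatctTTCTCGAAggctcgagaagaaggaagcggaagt
Hspe1: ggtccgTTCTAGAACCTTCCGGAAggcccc
The match begins 104 bases before the start in Hspa1a, 117 and 97 bases before it in Hspb1 and 89, 84 and 79 bases before it in Hspe1. Hsph1 has a match 33 bases before the start and another pair after it. Of the 11 members with the element 0 passed in limma in any of the comparisons. Of the 45 without it 0 passed in SalMorphine and 1 in ButMorphine against Saline, 0 between the morphine groups and 2 with these averaged. Of all genes 2.66%, 2.48%, 0.00% and 4.59% passed in the same order, so a count of 0 among 11 is near the background. The median difference from Saline of the 11 members with the element was 0.04 in SalMorphine and 0.02 in ButMorphine. The medians of the 45 members without it were -0.0025 and 0.03. A longer pattern, the endoplasmic reticulum stress response element, was found in the promoter of Dnajc3 alone among members (0.128% of all promoters), and the cyclic AMP response element TGACGTCA in that of Dnajc27 alone (2.49% of all promoters). A match is a run of letters and not a site shown to be bound. Only the window at the first listed start was searched. The stress-inducible genes Hspd1, Dnajb1 and Dnajb4 held no heat shock element there and count among the members without it.

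**Figure D2:**
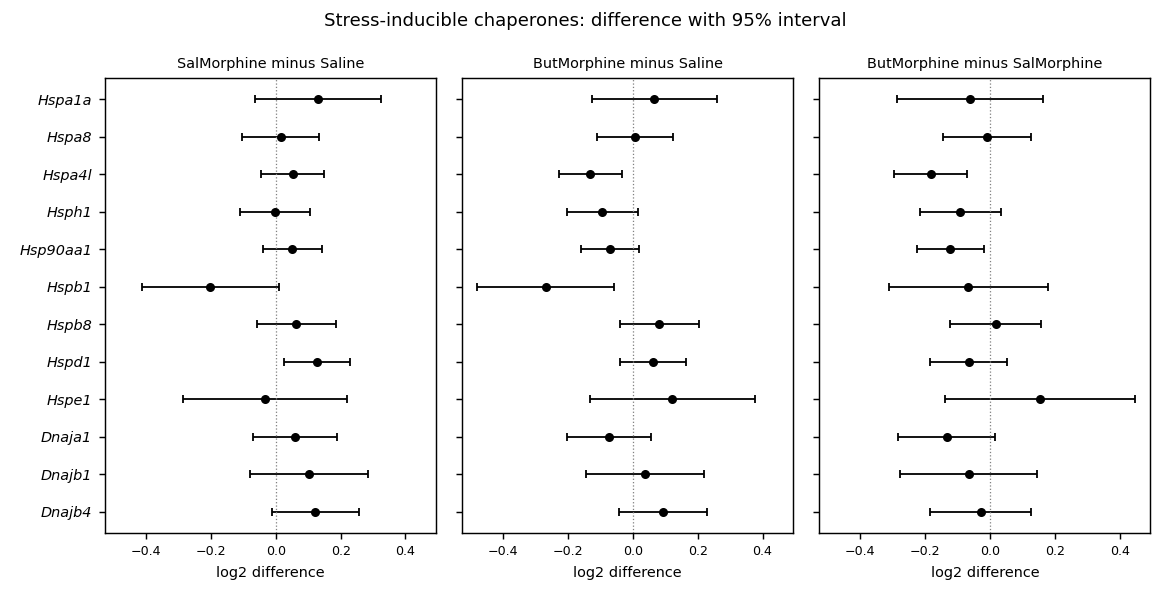
Difference of each of the 12 measured stress-inducible chaperones (points) with its 95% interval (bars) on the log2 scale, for SalMorphine against Saline, ButMorphine against Saline and ButMorphine against SalMorphine. Most intervals cross 0, those of Hspb1 lie furthest to the left against Saline, and those of Hspa4l and Hsp90aa1 lie left of 0 in ButMorphine against SalMorphine.

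Hspa1a encodes the inducible cytosolic Hsp70. Its values were -0.03, 0.16 and 0.26 in the SalMorphine arrays and 0.08, -0.06 and 0.19 in the ButMorphine arrays, and the Saline arrays ran from -0.22 to 0.22 with a median of 0. All groups overlap. The difference from Saline was 0.13 in SalMorphine (SE 0.09, 95% interval -0.07 to 0.32, adjusted p = 0.552 in limma) and 0.07 in ButMorphine (95% interval -0.13 to 0.26, adjusted p = 0.777). The row shared by Hspa1a and Hspa1b differed from Saline by 0.01 and -0.05.

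Hspa4l encodes an Hsp110-type exchange factor that recharges Hsp70 with ATP. Its values were 0.09, 0.03 and 0.03 in SalMorphine, -0.0088, -0.15 and -0.24 in ButMorphine and -0.06 to 0.06 in Saline, with a median of 0. Every SalMorphine array lies above 0 and every ButMorphine array below it, so the morphine groups do not overlap. ButMorphine was lower than SalMorphine by a log2 difference of -0.18 (SE 0.05, 95% interval -0.30 to -0.07), which had the lowest unadjusted p of any member in that comparison but an adjusted p of 0.341 in limma. Hsp90aa1, the inducible cytosolic Hsp90, differed by -0.12 (95% interval -0.23 to -0.02, adjusted p = 0.497) between the same groups, with each of its 3 rows negative. Hsph1, another exchange factor of the Hsp110 type, differed by -0.09 (95% interval -0.22 to 0.03). Dnaja1, a J protein that works with cytosolic Hsp70, differed by -0.13 (95% interval -0.28 to 0.01).

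Hspb1 encodes the small heat shock protein Hsp27, which in brain is found in vessels and glia and rises in stressed cells. Its values were -0.42, -0.08 and -0.10 in SalMorphine and -0.13, -0.45 and -0.23 in ButMorphine, and the Saline arrays ran from -0.16 to 0.16 with a median of 0. All 6 morphine arrays lie below 0, but 3 of them lie within the Saline range. The difference from Saline was -0.20 in SalMorphine (95% interval -0.41 to 0.0089, adjusted p = 0.346 in limma) and -0.27 in ButMorphine (95% interval -0.48 to -0.06, adjusted p = 0.180), so neither passed. Both rows of the gene gave nearly the same values. Endothelial markers were lower in the same arrays, with array means of -0.30 to -0.23 in SalMorphine and -0.24 to -0.15 in ButMorphine. The median difference of the 9 markers was -0.20 in SalMorphine and -0.07 in ButMorphine, where 8 were negative and 1 positive. Kdr and Cldn5 fell most of the 9, by 0.64 and 0.57 in SalMorphine and by 0.59 and 0.74 in ButMorphine. Microglia markers were lower too, at -0.25 to -0.16 and -0.20 to -0.15. The part of either in the Hspb1 values was not tested.

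None of the other 7 small heat shock proteins passed in limma in either comparison with Saline, and 1, Hspb11, had an unadjusted p under 0.05 (0.14 in ButMorphine, adjusted p = 0.259). Hspb11 is a subunit of the transport machinery of cilia despite its name. Hspb8, which hands misfolded proteins to autophagy together with Bag3, differed from Saline by 0.06 and 0.08.

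In the Hsp70 and Hsp110 family 1 of 12 measured genes passed, and it did so in ButMorphine against Saline, where 2.48% of all genes did. Hspa13, also called Stch, is a microsomal Hsp70-like protein that lacks the peptide-binding domain. Its values were 0.18, 0.26 and 0.14 in ButMorphine, -0.0031, 0.09 and 0.0075 in SalMorphine and -0.10 to 0.10 in Saline, with a median of 0. The 3 ButMorphine arrays lie above all 9 others, while SalMorphine lies within the Saline range. Hspa13 rose 1.14-fold in ButMorphine (log2 difference 0.19, SE 0.05, 95% interval 0.09 to 0.30, adjusted p = 0.0498 in limma). The difference from SalMorphine was 0.16 (95% interval 0.05 to 0.28, adjusted p = 0.417), so a difference between the morphine groups was not shown. The call stood at the threshold and passed in 2 of 12 fits that left out an array. It was lost without Saline array 1, 2, 4, 5 or 6, SalMorphine array 1 or 3 or any ButMorphine array (adjusted p up to 0.210, differences 0.16 to 0.22).

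The constitutive Hsp70, Hspa8, is the cytosolic chaperone that drives clathrin uncoating at synapses. Its values were 0.04, -0.14 and 0.14 in SalMorphine, 0.06, 0.03 and -0.07 in ButMorphine and -0.06 to 0.06 in Saline, with a median of 0. The groups overlap fully. Its difference from Saline was 0.01 in SalMorphine (95% interval -0.10 to 0.13, adjusted p = 0.945 in limma) and 0.0059 in ButMorphine (95% interval -0.11 to 0.12, adjusted p = 0.975).

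Rows for small nucleolar RNAs encoded inside Hspa8 stood apart from the gene itself. They were singled out after their values were seen and are not members, since they name a small nucleolar RNA alone or several symbols. Box C/D small nucleolar RNAs guide 2′-O-methylation of ribosomal RNA or its processing, and most mammalian ones are cut from the introns of a host gene. RefSeq places Snord14c, Snord14d and Snord14e, of 87, 87 and 91 bases, within Hspa8. One row names Snord14e, and 2 rows name Snord14d, Snord14c and Hspa8 together. Snord14e had values of 1.00, 0.46 and 0.99 in SalMorphine, 0.93, 0.69 and 0.80 in ButMorphine and -0.25 to 0.25 in Saline, with a median of 0. The first row of Snord14d, Snord14c and Hspa8 had values of 1.00, 0.37 and 0.88 in SalMorphine, 0.88, 0.84 and 0.66 in ButMorphine and -0.25 to 0.25 in Saline. The second had values of 0.96, 0.42 and 0.88 in SalMorphine, 0.87, 0.79 and 0.65 in ButMorphine and -0.26 to 0.26 in Saline. In each row all 6 morphine arrays lie above all 6 Saline arrays, and SalMorphine array 2 is the lowest of them.

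All 3 rows rose in both morphine groups. In a limma fit over all 28815 rows, 0.975% of rows were higher past the threshold in SalMorphine and 1.32% in ButMorphine. The Snord14e row rose 1.76-fold in SalMorphine (log2 difference 0.81, SE 0.13, 95% interval 0.53 to 1.09, adjusted p = 0.00794 in limma). It rose 1.75-fold in ButMorphine (0.81, 95% interval 0.53 to 1.09, adjusted p = 0.00843). The first row of Snord14d, Snord14c and Hspa8 differed from Saline by 0.75 in SalMorphine (adjusted p = 0.0167 in limma) and 0.79 in ButMorphine (adjusted p = 0.0115). The second differed by 0.76 (adjusted p = 0.0117 in limma) and 0.77 (adjusted p = 0.0105). Among 97 rows whose annotation names a small nucleolar RNA, these had the 3 highest differences in both comparisons, and the highest of the others was 0.37 in SalMorphine and 0.25 in ButMorphine. Since the rows were chosen with their values known, this rank and the adjusted p values describe them and are no independent test. The 3 rows also read close values on each array and are not counted as 3 separate findings. Whether they read the small nucleolar RNAs themselves or unspliced Hspa8 RNA was not tested. The row that names Snord14a and its host Rps13, on another gene, differed from Saline by -0.11 and 0.08 and did not pass.

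The 3 rows of Hspa8 alone differed from Saline by 0.0051 to 0.03 in SalMorphine and by -0.06 to 0.10 in ButMorphine. Within each array, the mean of the 3 small nucleolar RNA rows minus the Hspa8 value was 0.55 to 0.94 in SalMorphine, 0.75 to 0.83 in ButMorphine and -0.20 to 0.20 in Saline. This gap is given without a test, since the rows were chosen with their values known. The calls were lost without SalMorphine array 3 (adjusted p = 0.0502 to 0.0840 over the 3 rows, in SalMorphine) and without ButMorphine array 1 (adjusted p = 0.0545 to 0.0667, in ButMorphine). Both rows shared with Hspa8 also lost the ButMorphine call without ButMorphine array 2 (adjusted p = 0.0549 and 0.0613). In both morphine groups the calls of all 3 rows were lost as well with 1 Saline array of each mirrored pair and with quantile normalization. For Snord14e in SalMorphine the adjusted p values were 0.0957 and 0.263 in limma. All were also lost with Saline arrays 1 to 3 alone (adjusted p = 0.125 to 0.176) and with the replicate number as a block (0.221 to 0.321). With Saline arrays 4 to 6 alone only the ButMorphine call of Snord14e was kept. The differences stayed between 0.63 and 0.99 in every fit that left out an array.

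**Figure D3:**
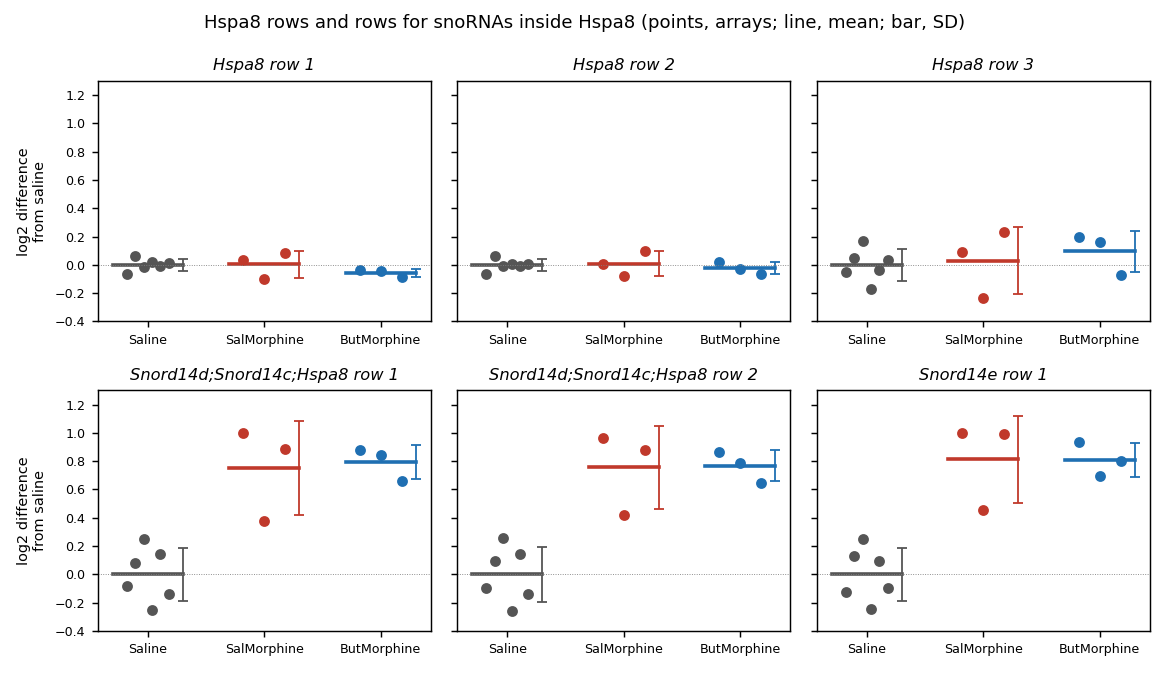
Log2 difference from Saline of the 3 rows of Hspa8 alone (top) and of the 3 rows for small nucleolar RNAs inside Hspa8 (bottom), with 1 point per array, the group mean as a line and the SD as a bar. The Hspa8 rows overlap across groups, whereas all 6 morphine arrays lie above Saline in each small nucleolar RNA row.

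The J proteins of class A and class B work mainly with the cytosolic Hsp70 proteins. Dnaja4, a J protein linked to cholesterol metabolism, had values of -0.15, -0.13 and -0.09 in SalMorphine, -0.18, -0.04 and -0.23 in ButMorphine and -0.03 to 0.03 in Saline, with a median of 0. All 6 morphine arrays lie below all 6 Saline arrays. With the morphine groups averaged Dnaja4 fell by 0.14 (SE 0.03, 95% interval -0.21 to -0.07, fold 0.909, adjusted p = 0.0300 in limma), and this was the 1 member among 69 whose arrays did not overlap in that comparison, where 3.29% of all genes did not overlap. Neither group passed alone (-0.12, adjusted p = 0.130, and -0.15, adjusted p = 0.0636). The averaged call was lost without Saline array 1, 2, 4, 5 or 6 or ButMorphine array 1 or 3 (adjusted p up to 0.0720, differences -0.17 to -0.12). The other 3 Dnaja genes did not pass. Dnaja3, a mitochondrial J protein, had values of -0.13, -0.12 and -0.11 in ButMorphine, all below Saline (-0.05 to 0.05), with a difference of -0.12 (adjusted p = 0.236).

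Dnajb14 is a J protein anchored in the membrane of the endoplasmic reticulum, with its J domain facing the cytosol. Its values were 0.19, 0.26 and 0.18 in ButMorphine, 0.12, 0.0027 and 0.13 in SalMorphine and -0.06 to 0.06 in Saline, with a median of 0. The 3 ButMorphine arrays lie above all 9 others, and 2 of 3 SalMorphine arrays lie above Saline. Dnajb14 rose 1.16-fold in ButMorphine (log2 difference 0.21, SE 0.04, 95% interval 0.12 to 0.30, adjusted p = 0.0223 in limma) and 1.11-fold with the morphine groups averaged (0.15, adjusted p = 0.0310). The difference was 0.08 in SalMorphine against Saline (adjusted p = 0.374) and 0.13 between ButMorphine and SalMorphine (95% interval 0.02 to 0.23, adjusted p = 0.497). A pair of rows that name Dnajb14 together with Pin4 differed from Saline by 0.20 and 0.21 in ButMorphine and by 0.07 and 0.04 in SalMorphine. Neither row passed in ButMorphine in the limma fit over all rows (adjusted p = 0.311 and 0.281). Within SalMorphine they ran from -0.27 to 0.31 and from -0.26 to 0.26, with array 1 the lowest. The ButMorphine call was lost without Saline array 1 or 4 or any ButMorphine array (adjusted p up to 0.116, differences 0.19 to 0.22). The averaged call was lost without Saline array 1, 4 or 5, SalMorphine array 3 or ButMorphine array 1 or 2 (adjusted p up to 0.0827).

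Of the 9 measured J proteins of the endoplasmic reticulum Dnajb14 alone passed. It did so in ButMorphine, where 2.48% of all genes did, and with the morphine groups averaged, where 4.59% did. Dnajb9, a target of the unfolded protein response that restrains the stress sensor Ire1, had values of 0.36, 0.30 and 0.19 in ButMorphine, all above Saline (-0.12 to 0.12), and 0.12, -0.25 and 0.33 in SalMorphine. Its ButMorphine difference of 0.28 was the largest in size of any member but did not pass (SE 0.10, 95% interval 0.08 to 0.49, adjusted p = 0.150 in limma). Dnajb12, which is closely related to Dnajb14, had negative differences of -0.14 in SalMorphine and -0.15 in ButMorphine (adjusted p = 0.317 and 0.231). Dnajc16 had values of -0.0027, -0.12 and -0.20 in SalMorphine, and the difference of ButMorphine from SalMorphine was 0.13 (adjusted p = 0.454). Members of the list thus lie on both sides of 0, and its median difference was -0.03 in SalMorphine and 0.02 in ButMorphine.

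The mitochondrial chaperones include the 1 member that passed in SalMorphine. Dnajc30 encodes a J protein of the inner mitochondrial membrane that has been tied to the ATP synthase and to the repair of complex I. Its values were -0.17, -0.13 and -0.29 in SalMorphine, -0.05, -0.12 and -0.05 in ButMorphine and -0.10 to 0.10 in Saline, with a median of 0. The 3 SalMorphine arrays lie below all 9 others, and 2 of 3 ButMorphine arrays lie within the Saline range. Dnajc30 fell by 0.20 in SalMorphine (SE 0.05, 95% interval -0.30 to -0.10, fold 0.871, adjusted p = 0.0366 in limma) and differed by -0.07 in ButMorphine (adjusted p = 0.464). ButMorphine stood above SalMorphine by 0.13 (95% interval 0.01 to 0.24, adjusted p = 0.523), so the groups were not shown to differ. The call was lost without Saline array 1, 3, 4, 5 or 6 or SalMorphine array 3 (adjusted p up to 0.168, differences -0.23 to -0.15).

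Hspd1, the Hsp60 of the mitochondrial folding chamber, had values of 0.04, 0.10 and 0.24 in SalMorphine, and its difference from Saline of 0.13 did not pass (95% interval 0.02 to 0.23, adjusted p = 0.197 in limma). Its partner Hspe1 ranged from -0.45 to 0.23 within SalMorphine and differed from Saline by -0.03 in SalMorphine and 0.12 in ButMorphine. Of the 10 mitochondrial genes on the list 9 did not pass in any comparison, and the median difference was -0.02 in SalMorphine and 0.01 in ButMorphine.

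The list of J proteins of synapses and clathrin vesicles, with Dnajb6 placed on it, held both the tightest and the widest values of the family. Dnajc6, the neuronal auxilin that recruits Hspa8 to clathrin coats, had the lowest SD of any member over the 12 arrays, at 0.03, against a median of 0.08. Its difference from Saline was 0.02 in ButMorphine, with a 95% interval of -0.04 to 0.09. Dnajc5, the cysteine string protein of synaptic vesicles, had a 95% interval of -0.07 to 0.08 in ButMorphine. Dnajc13, an endosomal J protein, was read by 15 rows, 13 of which were above Saline in ButMorphine and 6 in SalMorphine, and 0 of which passed. Dnajb6, which keeps aggregating proteins soluble, had the widest SD (0.23) because Saline arrays 5 and 6 read -0.44 and 0.44. That gene has 1 row of its own, which was not stored at 8 or more. In 4 rows that name Dnajb6 together with Gm4247, all stored at 8 or more, the Saline SD was 0.03 to 0.04. None of the 6 genes on this list passed in limma in any comparison, and 1, Dnajb2, had an unadjusted p under 0.05 in ButMorphine (-0.15, adjusted p = 0.208).

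Among the remaining Dnajc genes, Dnajc27 had values of 0.11, 0.10 and 0.14 in ButMorphine, all above Saline (-0.02 to 0.02). It is a small GTPase of the Rab family with a J domain. Its difference of 0.12 (95% interval 0.05 to 0.19) missed the threshold at an adjusted p of 0.0714 in limma. Dnajc9, which acts as a histone chaperone, had values of 0.17, 0.15 and 0.02 in ButMorphine, -0.12, -0.03 and -0.07 in SalMorphine and -0.13 to 0.13 in Saline. The morphine groups do not overlap, but both overlap with Saline. The difference between them was 0.19 (95% interval 0.06 to 0.32, adjusted p = 0.410).

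In all, the arrays of 3 members did not overlap with Saline in SalMorphine (Dnaja4, Dnajc18 and Dnajc30, all lower), where 8.20% of all genes did not. In ButMorphine 8 members did not overlap with Saline, 6 of them higher (Dnajb7, Dnajb9, Dnajb14, Dnajc7, Dnajc27 and Hspa13) and 2 lower (Dnaja3 and Dnaja4), where 11.7% of all genes did not. Between the morphine groups 7 members did not overlap, with Dnajb14, Dnajc9, Dnajc16, Dnajc30, Hspa13 and Hspb11 higher and Hspa4l lower in ButMorphine, where 10.7% of all genes did not. The share of members was below or close to the background each time.

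**Figure D4:**
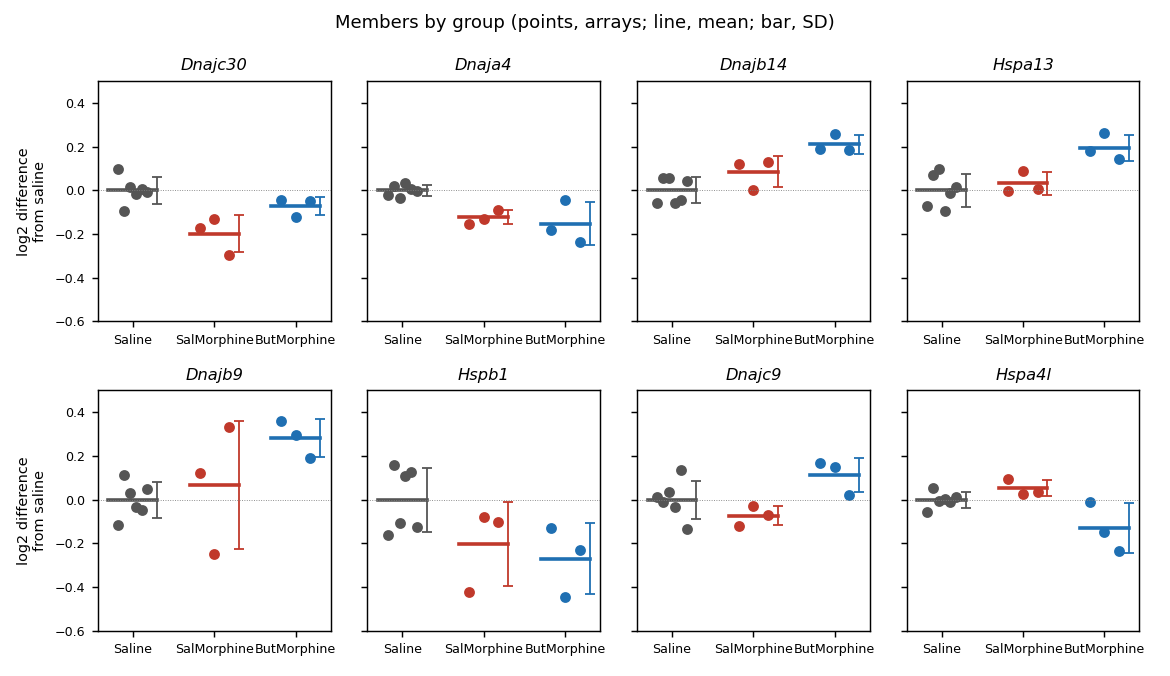
Log2 difference from Saline of 8 members by group, with 1 point per array, the group mean as a line and the SD as a bar. Dnajc30 is lowest in SalMorphine, Dnajb14 and Hspa13 are highest in ButMorphine, Dnaja4 is below Saline in all 6 morphine arrays, and Dnajc9 and Hspa4l have the morphine groups on opposite sides of 0.

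The 5 calls on members depended on the model. Each was lost when the table was quantile normalized, when the variance was fitted with a trend and robustly, and when 1 Saline array of each mirrored pair was used. Their adjusted p over these fits ran from 0.0531 to 0.566.

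Partners of the family, from a list of 44 co-chaperones, chaperonin subunits and regulators of which 42 were measured, gave 1 gene past the threshold in SalMorphine and 2 in ButMorphine, all higher, where 2.66% and 2.48% of all genes passed in either direction. Fkbp5 encodes an Hsp90 co-chaperone that lowers the hormone affinity of the glucocorticoid receptor and is itself raised by that receptor. Its values were 0.60, 0.49 and 0.46 in SalMorphine, 0.62, 0.80 and 0.42 in ButMorphine and -0.11 to 0.11 in Saline, with a median of 0. All 6 morphine arrays lie above all Saline arrays. Fkbp5 rose 1.43-fold in SalMorphine (log2 difference 0.52, SE 0.07, 95% interval 0.37 to 0.67, adjusted p = 0.00171 in limma) and 1.53-fold in ButMorphine (0.61, SE 0.07, 95% interval 0.46 to 0.77, adjusted p = 0.000401), and it passed in all 12 fits that left out an array. The difference between the morphine groups was 0.10 (95% interval -0.08 to 0.27). Its closest relative on the Hsp90 receptor complex, Fkbp4, differed from Saline by 0.03 and -0.05.

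Cdc37l1, a relative of the kinase co-chaperone Cdc37, had values of 0.48, 0.25 and 0.16 in ButMorphine, 0.25, 0.17 and 0.31 in SalMorphine and -0.11 to 0.11 in Saline. All morphine arrays lie above Saline. It rose 1.22-fold in ButMorphine (log2 difference 0.29, 95% interval 0.15 to 0.43, adjusted p = 0.0350 in limma), and with the morphine groups averaged (0.27, adjusted p = 0.0127). The difference of 0.24 in SalMorphine did not pass (adjusted p = 0.0724). The ButMorphine call was lost without Saline array 1, 2, 4, 5 or 6 or ButMorphine array 1 or 2 (adjusted p up to 0.146, differences 0.20 to 0.36). Both calls were lost under quantile normalization (adjusted p = 0.214 and 0.116) and with 1 Saline array of each mirrored pair (0.172 and 0.130), and the ButMorphine call also with a variance trend and robust fitting (0.0728) and against the deposited baseline without Saline arrays (0.0571).

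The regulators of the heat shock response did not pass. Hsf2, a heat shock factor, differed from Saline by 0.20 in ButMorphine (values 0.25, 0.12 and 0.23, adjusted p = 0.0711 in limma) and 0.08 in SalMorphine. Hsf1 was not measured in a row of its own. Stip1, which joins Hsp70 to Hsp90, Bag3, which releases substrates from Hsp70 into autophagy, and Cryab, the lens and glial small heat shock protein, had differences from Saline of -0.08 to 0.05 in either group.

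The cytosolic chaperonin is a ring of Cct subunits and Tcp1 that folds actin and tubulin. Between ButMorphine and SalMorphine, in limma 0 of its 8 genes passed and 4 had an unadjusted p under 0.05, all lower, where 0.00% of all genes passed and 8.62% had an unadjusted p under 0.05 in either direction. The median difference was -0.10, against 0.0106 over all genes, with 7 differences negative and 1 positive. Cct4 had values of 0.21, 0.07 and -0.13 in SalMorphine and -0.15, -0.25 and -0.21 in ButMorphine, with a difference of -0.25 (SE 0.07, 95% interval -0.40 to -0.11, adjusted p = 0.306). Cct5, Cct8 and Cct7 differed by -0.20, -0.15 and -0.13 (adjusted p = 0.354, 0.366 and 0.531), and Cct6a, Cct3 and Tcp1 by -0.06, -0.03 and -0.01. Cct2 went the other way, with a difference of 0.11 (95% interval -0.06 to 0.28, adjusted p = 0.745). Outside the ring Cdc37 differed by -0.21 (adjusted p = 0.328). In each of Cct4, Cct5, Cct8 and Cdc37 SalMorphine array 1 was the highest of the 12 arrays.

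**Figure D5:**
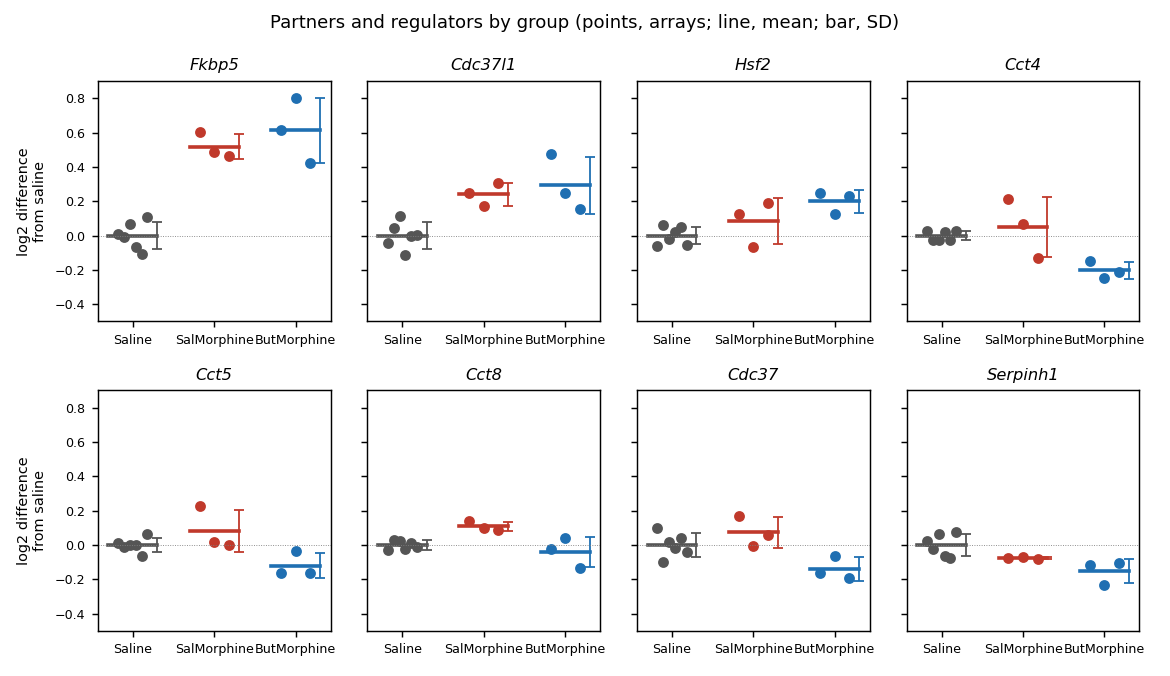
Log2 difference from Saline of 8 partners and regulators by group, with 1 point per array, the group mean as a line and the SD as a bar. Fkbp5 and Cdc37l1 lie above Saline in all 6 morphine arrays, and Cct4, Cct5, Cct8 and Cdc37 have lower means in ButMorphine than in SalMorphine, differences that did not pass the test.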

How the data were processed

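Striatal RNA from 12 pools of mice was measured on Affymetrix Mouse Gene 1.0 ST arrays, with 1 array per pool, per the labels' protocols. The authors deposited log values of 28815 rows as differences from a baseline, taken here as log2. The log base, the background correction, the normalization, the choice of baseline and the probe build were not stated (not given in the sources used here). Direction was taken as deposited. The Saline arrays are mirror images in pairs (sums of 0 within 1e-06). Of the rows, 21780 had 1 gene symbol in the platform annotation, 1605 several and 5430 none, and 21689 had an Entrez ID in RefSeq.

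Rows of a gene were averaged, and no row was filtered. Group means were fitted with limma 3.58.1 under R 4.3.3 (lmFit and eBayes) over 19935 genes and all 12 arrays, with 9 residual and 3.99 prior degrees of freedom and Benjamini-Hochberg adjustment at 0.05. Rows with several symbols were tested in a separate fit of all rows. The code was run on simulated data to check that it finds large changes and gives the direction of changes it calls. This check does not bear on how well differences as small as those of the members are found. The number of arrays limits the precision. The residual degrees of freedom count the mirrored Saline arrays as separate values, so intervals and adjusted p values against Saline may be too narrow and too low. The median 95% interval of a member reached 0.11 to either side against Saline.

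Members and lists were chosen with earlier results of these data known. Named genes were members past the threshold, the stress-inducible list, the 6 members of lowest p in each comparison, the member of widest spread, partners past the threshold and a few set regulators. Further members and partners, and the rows inside Hspa8, were chosen after their values were seen. Alternatives changed the normalization, the summary of rows, the variance model, the arrays used and the threshold. Replicates were separate pools.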

Additional observations from a re-analysis of the deposited data

Results flagged for a closer look

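In Hspa4l and Dnajc9 the morphine groups lay on opposite sides of 0, the Saline mean, in every array, though some of these arrays lay within the Saline range. The difference of ButMorphine from SalMorphine was -0.18 for Hspa4l (adjusted p = 0.341 in limma) and 0.19 for Dnajc9 (adjusted p = 0.410), so the tested difference passed in neither. The pattern held for 386 of 19935 genes (1.94%) and 2 of 69 members (2.90%).

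Both rows that name Snord14d, Snord14c and Hspa8, which no comparison of single-symbol genes uses, stood above Saline, by 0.77 and 0.76 with the morphine groups averaged (adjusted p = 0.00254 and 0.00204 in limma). These calls were lost with 1 Saline array of each mirrored pair (adjusted p = 0.0736 and 0.0552) and with Saline arrays 1 to 3 alone (0.0810 and 0.0657), and that of the second row also under quantile normalization (0.0535).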

How the results depend on the processing

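No call on a named gene changed direction under any alternative run. Members passing in SalMorphine (1), ButMorphine (2) and the morphine groups averaged (2) became 0 in each under quantile normalization, a variance trend with robust fitting, 1 Saline array of each mirrored pair, Saline arrays 1 to 3 or 4 to 6 alone, and an adjusted p of 0.01. The SalMorphine count was also 0 with only the compared groups fitted and against the deposited baseline without Saline arrays. The ButMorphine count was 1 with arrays centred on their medians or rows tested singly, 4 with array weights, 5 with only the compared groups and 4 at an adjusted p of 0.1. The averaged count was 4 with array weights, 7 against the deposited baseline and 4 at 0.1. Between the morphine groups it stayed 0. Leaving out 1 array gave 0 to 2, 0 to 3, 0 and 0 to 4.

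Partners passing in SalMorphine (1) became 2 with only the compared groups or with genes stored at 8 or more, and 3 at 0.1. In ButMorphine (2) they became 1 under quantile normalization, the variance trend, 1 Saline array of each pair, the deposited baseline, Saline arrays 1 to 3 or 4 to 6 alone and 0.01, 4 with array weights or only the compared groups, and 5 at 0.1. Averaged (2), they became 1 under quantile normalization, Saline arrays 1 to 3 or 4 to 6 alone and 0.01, 4 with array weights and 5 against the deposited baseline or at 0.1. With 1 Saline array of each pair that count was 2, but Cdc37l1 gave way to Grpel2. Leaving out 1 array gave 1 to 2, 1 to 4, 0 to 1 between the morphine groups and 2 to 3. The cause of these shifts was not tested. Groups of 3 arrays and the unknown scale limit every call.

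Over 9 same-numbered pairs of arrays r ran from -0.27 to 0.20, 1 of them over 0.1. Between the morphine groups the same-numbered pairs had r of -0.12, -0.27 and -0.20, so none was positive. For Saline this check cannot exclude pairing, since mirrored Saline arrays have opposite correlations with any other array. Whether the replicate numbers pair Saline with the morphine groups was thus not decided. With the replicate number as a block the counts were 0, 0, 0 and 0 for members and 0, 0, 0 and 1 for partners, in the order above, and Fkbp5 had adjusted p values of 0.0900 and 0.0509. The averaged calls of both rows that name Snord14d, Snord14c and Hspa8 were lost too (adjusted p = 0.198 and 0.173). Replicate numbers 4 to 6 occur in Saline alone, so those Saline arrays do not enter the differences of the block fit. The mirrored pairs of Saline arrays were not used as blocks.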
